A study of Mus musculus with 20 samples.

Results

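Glutathione peroxidases, peroxiredoxins and the testis reductase Txnrd3 were followed in the testes of 20 mice. Members were taken by gene symbol, and every probe annotated with Gpx1, Gpx3, Gpx4, Prdx1, Prdx2, Prdx3, Prdx4, Prdx5, Prdx6 or Txnrd3 was used. Of these 10 genes, 7 had a probe, 1 probe each, so 7 of the 20868 probes, and 7 of the 16966 named genes, are described here. Gpx1, Prdx5 and Prdx6 carried no probe under their symbol and were not analysed here.

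Both enzyme families remove peroxides. Glutathione peroxidases take the electrons for this from glutathione, and several of them, Gpx3 and Gpx4 included, carry selenocysteine in the active site. Peroxiredoxins use a reactive cysteine that is reset by thioredoxin, which is in turn reduced by thioredoxin reductases with NADPH. In the testis Gpx4 is known for an additional role: it reduces lipid hydroperoxides in membranes and, late in sperm formation, becomes a structural protein of the mitochondrial capsule of the sperm midpiece. Txnrd3, also called thioredoxin-glutathione reductase, joins a glutaredoxin domain to a thioredoxin reductase and is made mainly in male germ cells.

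The study asked whether loss of the DNA damage recognition protein Xpc changes the transcriptional response of the testis to benzo[a]pyrene (B[a]P), a polycyclic aromatic hydrocarbon whose metabolites bind DNA. There were 4 groups of 5 male C57BL/6 mice. Xpc-/- B[a]P mice lacked Xpc and received B[a]P once by gavage at 13 mg/kg bw, Xpc-/- control mice lacked Xpc and received sunflower oil alone, Wt B[a]P mice were wild type and received the same dose, and Wt control mice were wild type and received the oil alone. Testes were collected at day 4 in all groups. RNA of each whole testis, labelled with Cy5, was hybridized on a 2-colour array beside a Cy3 pool of 3 unexposed Wt mice. Values are natural log signals as the authors normalized them, shown here on the log2 scale, where a difference of 1 is a doubling. They are signal levels and not ratios to the pool, and since probes differ in how brightly they report, the level of one gene is not set against that of another. In whole testis, fewer cells of a type and less RNA per cell cannot be told apart.

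The labels were checked on Xpc itself, whose signal averaged 6.56 ± 0.21 in Xpc-/- B[a]P, 6.72 ± 0.29 in Xpc-/- control, 7.29 ± 0.20 in Wt B[a]P and 7.39 ± 0.20 in Wt control mice (SD, n = 5 each). Its genotype difference over both treatments was -0.70 (limma, Benjamini-Hochberg adjusted p = 0.000298). Of the germ cell markers, 8 of 10 for elongating spermatids, 6 of 9 measured for round spermatids and 8 of 10 for spermatocytes lay in the top 25% of all probes by signal and 0 in the lowest 25%. For spermatogonia 2 of 8 measured lay in the top 25% and 1 in the lowest 25%. These counts are a description only, since probes differ in brightness. Xpc-/- control mice 1 and 2 stood apart from the other arrays on the first principal component, with scores of 38.4 and 40.5 against -18.7 to 8.10 elsewhere. Some of the results that rest on them are given with and without them. Within groups, arrays correlated at 0.964 to 0.994, and 0 pairs of arrays held identical values.

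Over both genotypes, Gpx4 was the 1 member called as different after B[a]P, at an adjusted p under 0.05 (limma). Its signal was 15.15, 15.39, 15.45, 15.37 and 15.79 in Xpc-/- B[a]P mice, against 15.07, 14.82, 15.08, 15.08 and 14.96 in Xpc-/- control mice. In Wt B[a]P mice it was 15.51, 15.45, 15.76, 15.41 and 15.33, against 14.96, 14.89, 14.98, 15.05 and 14.86 in Wt control mice. Every exposed mouse of either genotype lay above every control mouse: the 10 exposed mice spanned 15.15 to 15.79 and the 10 control mice 14.82 to 15.08. The gap between the lowest exposed mouse, Xpc-/- B[a]P 1, and the highest control mouse was 0.07. Such a separation upwards of all 10 exposed from all 10 control mice was seen for 0.383% of the probes.

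Group means of Gpx4 were 15.43 ± 0.23 in Xpc-/- B[a]P, 15.00 ± 0.11 in Xpc-/- control, 15.49 ± 0.16 in Wt B[a]P and 14.95 ± 0.08 in Wt control mice (SD, n = 5 each). Over both genotypes Gpx4 rose by 0.49 on the log2 scale after B[a]P (SE 0.08), a gene expression ratio of 1.40 with a 95% interval of 1.26 to 1.56, and ranked 43 of 20868 probes by p. The adjusted p was 0.000312 (limma, Benjamini-Hochberg over all probes). In this comparison 5.68% of all probes were called, and 3.57% were called as higher. Among the 25% of probes with the highest signal, where Gpx4 lies, 16.1% were called. A single call among 7 members therefore describes Gpx4 and not the family.

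Taken within each genotype, the Gpx4 ratio was 1.35 in Xpc-/- mice (95% interval 1.15 to 1.57) and 1.46 in Wt mice (1.25 to 1.70). In limma the adjusted p was 0.0589 in Xpc-/- mice, above the threshold of 0.05, and 0.0148 in Wt mice. The share of all probes called was 0.647% in Xpc-/- mice and 0.695% in Wt mice. The difference between these 2 responses was tested directly: the interaction was -0.12 on the log2 scale with a 95% interval of -0.43 to 0.20 (limma, adjusted p = 0.999), so a weaker or a stronger response in Xpc-/- mice was not shown. Exposed and control mice did not overlap within either genotype, which held upwards for 1.58% of probes in Xpc-/- mice and 2.39% in Wt mice. Which genotype passes the threshold depended on single mice. The Xpc-/- response was called without Xpc-/- B[a]P 1 (adjusted p = 0.0368) or without Xpc-/- control 3 (adjusted p = 0.0454), and the Wt response was not called without Wt B[a]P 1 (adjusted p = 0.0523), without Wt B[a]P 3 (adjusted p = 0.0604) or without Wt control 5 (adjusted p = 0.0690), all by limma. Without Xpc-/- control 1 and 2 the response over both genotypes was 0.47 (limma, adjusted p = 0.000257). In Xpc-/- mice it was then 0.39 on the log2 scale (limma, adjusted p = 0.0682), against 0.43 with all arrays.

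**Figure D1:**
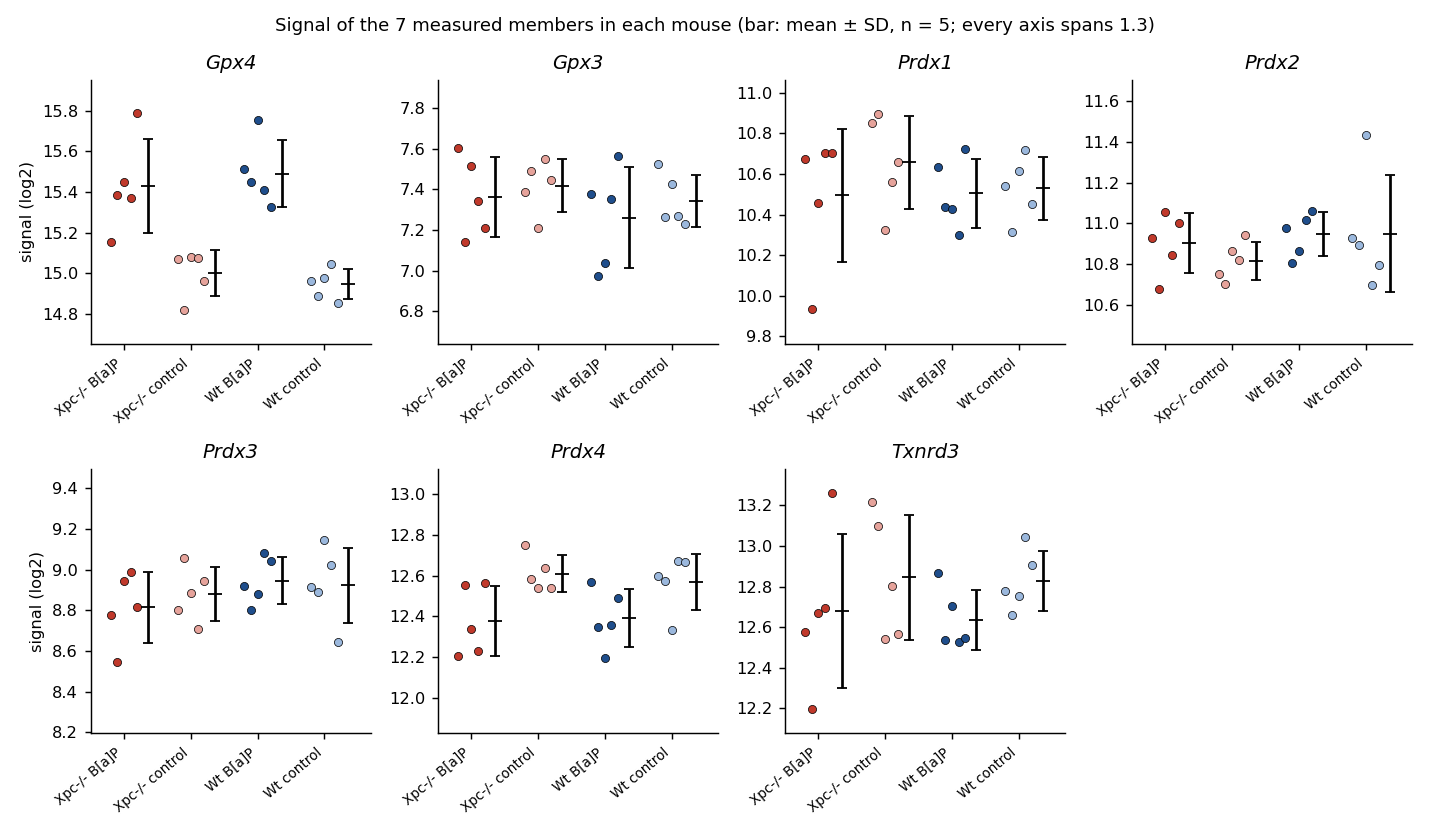
Log2 signal of the 7 measured members in each mouse, with groups along the horizontal axis, 1 dot per mouse and a bar for the mean ± SD (n = 5). Each panel has its own vertical axis with the same span. In the Gpx4 panel all 10 exposed mice, from 15.15 to 15.79, lie above all 10 control mice, from 14.82 to 15.08; in the other 6 panels the groups overlap.

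The Gpx4 spot is one of the brightest on the array. On average 29 probes were brighter, and in single arrays 8 to 54 were, with Gpx4 between 0.18 and 1.26 log2 units below the brightest probe. Whether signals this near the top of the range were compressed was not tested. A mouse genome annotation (RefSeq, GRCm38.p6) also lists 2 processed copies, Gpx4-ps1 and Gpx4-ps2. The probe sequence was not used here, so whether the probe also reads a copy, or which of the cytosolic, mitochondrial and nuclear forms of Gpx4 it reads, was not tested.

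The listed markers of spermatids, in which Gpx4 is known to be abundant, were not called as higher over both genotypes. Some other sperm genes, from the redox lists read below, were. Txndc8, Oaz3 and Akap3 rose by 0.40, 0.38 and 0.39 (limma, adjusted p = 0.00585, 0.00227 and 0.00308). The median of the 18 probes for capsule and outer dense fibre partners of Gpx4 was -0.04. The average of the 10 elongating spermatid markers, relative to its Wt control mean, ranged from -0.10 to 0.00 in Xpc-/- B[a]P, -0.04 to 0.11 in Xpc-/- control, -0.20 to 0.06 in Wt B[a]P and -0.10 to 0.11 in Wt control mice, and 0 of the 10 probes were called in either direction over both genotypes (limma; 0 also at an unadjusted p under 0.05). For round spermatids, the average of 9 measured markers ranged from -0.15 to 0.00 in Xpc-/- B[a]P, -0.07 to 0.21 in Xpc-/- control, -0.21 to -0.05 in Wt B[a]P and -0.13 to 0.15 in Wt control mice. In both averages the 2 highest Xpc-/- control values came from mice 1 and 2, the arrays that stood apart. Xpc-/- control 3, 4 and 5 had -0.02, -0.01 and -0.04 for elongating and -0.07, 0.09 and 0.07 for round spermatids. Of the 9 round spermatid probes 0 rose and 3 fell over both genotypes. These were Catsper4, Tssk2 and Crem, at -0.33, -0.26 and -0.31 (limma, adjusted p = 0.00964, 0.0401 and 0.0463). Among the 12 probes of 10 spermatocyte markers 2 rose and 0 fell, with averages of 0.03 to 0.12 in Xpc-/- B[a]P, -0.02 to 0.12 in Xpc-/- control, -0.01 to 0.22 in Wt B[a]P and -0.12 to 0.08 in Wt control mice. The 2 that rose were Sycp3, at 0.40, and Sycp2, at 0.38 (limma, adjusted p = 0.00409 and 0.0137). Within a genotype 0 round spermatid or spermatocyte probes were called (limma). Over both genotypes 5.68% of all probes were called, and 16.1% of the probes with the highest signal, as defined above for Gpx4. Some markers of somatic cells were also called after B[a]P. Of 8 probes for peritubular myoid cells, the contractile cells of the tubule wall, 2 rose and 0 fell over both genotypes: Tagln, an actin-binding protein of smooth muscle, by 0.43 (limma, adjusted p = 0.000536) and Cnn1, smooth muscle calponin, by 0.33 (limma, adjusted p = 0.0244). Tagln was also called in Xpc-/- mice and in Wt mice, at 0.42 and 0.43 (limma, adjusted p = 0.0474 and 0.0405), and Cnn1 in Xpc-/- mice, at 0.52 (limma, adjusted p = 0.0432). The average of the 7 myoid markers ranged from 0.00 to 0.18 in Xpc-/- B[a]P and -0.16 to -0.03 in Xpc-/- control mice, which did not overlap. It ranged from 0.01 to 0.18 in Wt B[a]P and -0.05 to 0.05 in Wt control mice, which did. The shares of separate groups given above are for single probes, and how often an average of several genes separates was not tested.

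Of 9 macrophage markers 1 rose and 0 fell. This was C1qc, a chain of complement C1q, at 0.41 over both genotypes (limma, adjusted p = 0.00136) and 0.44 in Wt mice (limma, adjusted p = 0.0498). The macrophage average overlapped in both genotypes, with -0.04 to 0.22 in Xpc-/- B[a]P, -0.23 to 0.14 in Xpc-/- control, 0.06 to 0.29 in Wt B[a]P and -0.10 to 0.25 in Wt control mice. In the lists for spermatogonia, Sertoli cells, Leydig cells, endothelium, red blood cells and epididymis 0 probes were called over both genotypes (limma), and 0, 4, 2, 1, 1 and 0 of them had an unadjusted p under 0.05. These marker genes were named after their values were seen. The part of any of these cell types in the Gpx4 difference was not tested.

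The promoters of 3 members are printed because B[a]P is a ligand of the aryl hydrocarbon receptor, whose binding core is GCGTG. Each window runs from 250 bases before to 50 bases after an annotated start (RefSeq, GRCm38.p6, plus strand), 5′ to 3′, with GCGTG on either strand in capitals (CACGC where it lies on the minus strand). Gpx4 is shown as the member that was called, by 1 of its 4 start windows, at chr10:80053409-80053708. Prdx2 (chr8:84969372-84969671), with the most cores of any single member window, and Txnrd3 (chr6:89643738-89644037) are shown beside it as members that were not called.
Gpx4: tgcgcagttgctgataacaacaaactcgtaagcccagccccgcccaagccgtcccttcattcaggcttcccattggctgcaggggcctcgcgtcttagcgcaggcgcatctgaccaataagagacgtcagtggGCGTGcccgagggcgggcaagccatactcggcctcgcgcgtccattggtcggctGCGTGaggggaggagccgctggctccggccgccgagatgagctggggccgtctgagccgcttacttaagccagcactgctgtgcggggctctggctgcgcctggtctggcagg
Prdx2: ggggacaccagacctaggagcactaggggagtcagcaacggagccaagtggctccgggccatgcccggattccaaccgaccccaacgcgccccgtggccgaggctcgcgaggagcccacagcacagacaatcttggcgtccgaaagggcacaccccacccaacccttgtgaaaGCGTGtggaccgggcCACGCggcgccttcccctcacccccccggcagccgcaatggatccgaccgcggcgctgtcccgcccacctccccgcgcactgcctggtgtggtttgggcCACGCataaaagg
Txnrd3: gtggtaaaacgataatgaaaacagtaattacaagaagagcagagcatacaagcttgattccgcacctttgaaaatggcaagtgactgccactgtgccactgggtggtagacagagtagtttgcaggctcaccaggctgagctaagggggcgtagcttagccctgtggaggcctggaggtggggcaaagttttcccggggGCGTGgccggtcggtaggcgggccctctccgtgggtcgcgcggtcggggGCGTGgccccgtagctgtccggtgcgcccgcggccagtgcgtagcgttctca

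The 4 Gpx4 windows held 0, 2, 2 and 1 cores, in order along the chromosome. The window printed and the one before it overlap and share the same 2, so Gpx4 has 3 distinct cores in all. Prdx2 held 3 and Txnrd3 and Prdx3 held 2 each, whereas Gpx3, Prdx1 and Prdx4 held 0. Of 32851 windows of the same length in the mouse table, 32.4% held at least 1 core. The antioxidant response element core TGACNNNGC, which NRF2 binds, was found on either strand in 1 member window, that of Prdx1, and in 12.4% of all windows. Cores of this length occur often, and a match is not a binding site. Members with and without matches were among those that were not called. Binding of the receptor or of NRF2 to these promoters was not tested.

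Gpx3, the secreted glutathione peroxidase of plasma and extracellular fluid, did not pass the test in any comparison. It ranged from 7.14 to 7.60 in Xpc-/- B[a]P, 7.21 to 7.55 in Xpc-/- control, 6.97 to 7.56 in Wt B[a]P and 7.23 to 7.53 in Wt control mice. All 4 groups overlapped, and the difference after B[a]P over both genotypes was -0.07 with a 95% interval of -0.24 to 0.10 (limma, adjusted p = 0.726). Its probe was brighter than 43.6% of the probes.

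Among the peroxiredoxins, Prdx4 had the lowest p after B[a]P. Prdx4 is the peroxiredoxin of the endoplasmic reticulum, where it passes oxidizing equivalents to folding proteins. It measured 12.21, 12.55, 12.34, 12.23 and 12.56 in Xpc-/- B[a]P mice, against 12.75, 12.58, 12.54, 12.64 and 12.54 in Xpc-/- control mice. Wt B[a]P mice had 12.57, 12.35, 12.20, 12.36 and 12.49, against 12.60, 12.57, 12.33, 12.67 and 12.67 in Wt control mice. Exposed mice tended to the lower end, with overlap in both genotypes. In Xpc-/- mice, 2 exposed mice reached the level of their controls. In Wt mice the overlap came from Wt control 3 alone, which lay among the exposed mice. The highest exposed Wt mouse, Wt B[a]P 1 at 12.5695, lay just below the lowest of the other Wt controls, at 12.5745. The difference over both genotypes was -0.20 (SE 0.07, 95% interval -0.35 to -0.05), a ratio of 0.868. Its unadjusted p was 0.00973 and its adjusted p 0.106 (limma, Benjamini-Hochberg), so it was not called. An unadjusted p under 0.05 was reached by 18.5% of all probes in this comparison and by 2 of the 7 members, Gpx4 and Prdx4. Within genotypes the Prdx4 difference was -0.23 in Xpc-/- mice (adjusted p = 0.300) and -0.18 in Wt mice (adjusted p = 0.612). Without Xpc-/- control 1 and 2 the Prdx4 difference over both genotypes was -0.18 (limma, adjusted p = 0.129).

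Prdx1, a cytosolic peroxiredoxin and a known NRF2 target, overlapped between all groups. It was 10.68, 9.93, 10.46, 10.70 and 10.70 in Xpc-/- B[a]P mice, against 10.85, 10.89, 10.32, 10.56 and 10.66 in Xpc-/- control mice. The Wt mice spanned 10.30 to 10.72 after B[a]P and 10.31 to 10.72 as controls. The 2 highest values of all 20 mice were those of Xpc-/- control 1 and 2, the arrays that stood apart, and the lowest was Xpc-/- B[a]P 2. Over both genotypes the difference was -0.09 (95% interval -0.29 to 0.10; limma, adjusted p = 0.663), and -0.02 without Xpc-/- control 1 and 2.

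Prdx2, the other main cytosolic form and abundant in red blood cells, ranged from 10.68 to 11.06 in Xpc-/- B[a]P, 10.70 to 10.94 in Xpc-/- control, 10.80 to 11.06 in Wt B[a]P and 10.70 to 11.44 in Wt control mice. The value of 11.44 came from Wt control 3, and the next highest of that group was 10.93. The B[a]P difference over both genotypes was 0.04 (95% interval -0.13 to 0.21; limma, adjusted p = 0.849). The annotation lists 2 copies of Prdx2 and 1 of Prdx1, and whether the probes read them was not tested.

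Prdx3, the mitochondrial peroxiredoxin, had the smallest difference after B[a]P over both genotypes. It ranged from 8.55 to 8.99 in Xpc-/- B[a]P, 8.71 to 9.06 in Xpc-/- control, 8.80 to 9.08 in Wt B[a]P and 8.64 to 9.14 in Wt control mice. Group means lay between 8.82 and 8.95, and the B[a]P difference over both genotypes was -0.02 (95% interval -0.18 to 0.14; limma, adjusted p = 0.924). Of the 4 measured peroxiredoxins, 0 were called in any of the 7 comparisons (limma), whereas at an unadjusted p under 0.05 Prdx4 passed over both genotypes and in Xpc-/- mice. Over both genotypes the interval of Prdx1 included the difference measured for Prdx4, whereas those of Prdx2 and Prdx3 did not. The interval of Prdx4 itself, -0.35 to -0.05, overlapped each of theirs, and differences between members were not tested.

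Txnrd3, the reductase that can serve both the thioredoxin and the glutathione systems in spermatids, had the largest spread within groups when these were pooled. Its signal was 12.58, 12.20, 12.67, 12.70 and 13.26 in Xpc-/- B[a]P mice, against 13.22, 13.10, 12.54, 12.80 and 12.56 in Xpc-/- control mice. Wt B[a]P mice had 12.87, 12.54, 12.70, 12.53 and 12.55, against 12.78, 12.66, 12.75, 13.04 and 12.90 in Wt control mice. In Xpc-/- mice the highest and the lowest of all 20 values both came from exposed animals, and the 2 high controls were the arrays that stood apart. The SD within groups, pooled over the 4 groups, was 0.27 for Txnrd3, 0.23 for Prdx1 and between 0.14 and 0.18 for the other 5 members. For Txnrd3 it came mainly from Xpc-/- mice, with an SD of 0.38 in Xpc-/- B[a]P, 0.31 in Xpc-/- control, 0.15 in Wt B[a]P and 0.15 in Wt control mice.

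Over both genotypes Txnrd3 differed by -0.18 after B[a]P (SE 0.10, 95% interval -0.39 to 0.04; limma, adjusted p = 0.384). Without Xpc-/- control 1 and 2 this was -0.07 (adjusted p = 0.716), and within Xpc-/- mice the difference went to 0.04, against -0.17 with all arrays. In Wt mice it was -0.19 (adjusted p = 0.758). Txnrd3 lies on chromosome 6 as Xpc does, with 31 protein-coding genes annotated between them, so its genotype difference was of interest. It was 0.03 over both treatments (95% interval -0.18 to 0.24; limma, adjusted p = 0.964), 0.04 between exposed mice and 0.02 between unexposed mice. Without Xpc-/- control 1 and 2 the sign turned over both treatments, to -0.07, and between unexposed mice, to -0.19, and neither was called (limma).

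Xpc genotype was not associated with a called difference in any member. Over both treatments the differences of Xpc-/- from Wt mice ran from -0.09 for Prdx2 and Prdx3 to 0.09 for Gpx3, with 0.00 for Gpx4 (95% interval -0.16 to 0.15). Without Xpc-/- control 1 and 2 they ran from -0.10 for Prdx3 to 0.08 for Gpx3, and 0 members were called (limma). By limma 0 of 7 members were called over both treatments, in exposed mice or in unexposed mice, and 0 reached an unadjusted p under 0.05; ordinary two-way analysis of variance also called 0. Of all probes, 0.0192% were called over both treatments, 0.00479% in exposed mice and 0% in unexposed mice, where 926 probes had an unadjusted p under 0.05. For the interaction 0% of probes were called and 649 had an unadjusted p under 0.05, with 0 members among them. The member with the widest interaction interval was Txnrd3, at -0.40 to 0.45 on the log2 scale. Its estimate of 0.03 became 0.23 without Xpc-/- control 1 and 2. With 5 mice per group, an interval this wide includes a stronger and a weaker response in Xpc-/- mice. The smallest difference in response that could be detected was not tested.

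**Figure D2:**
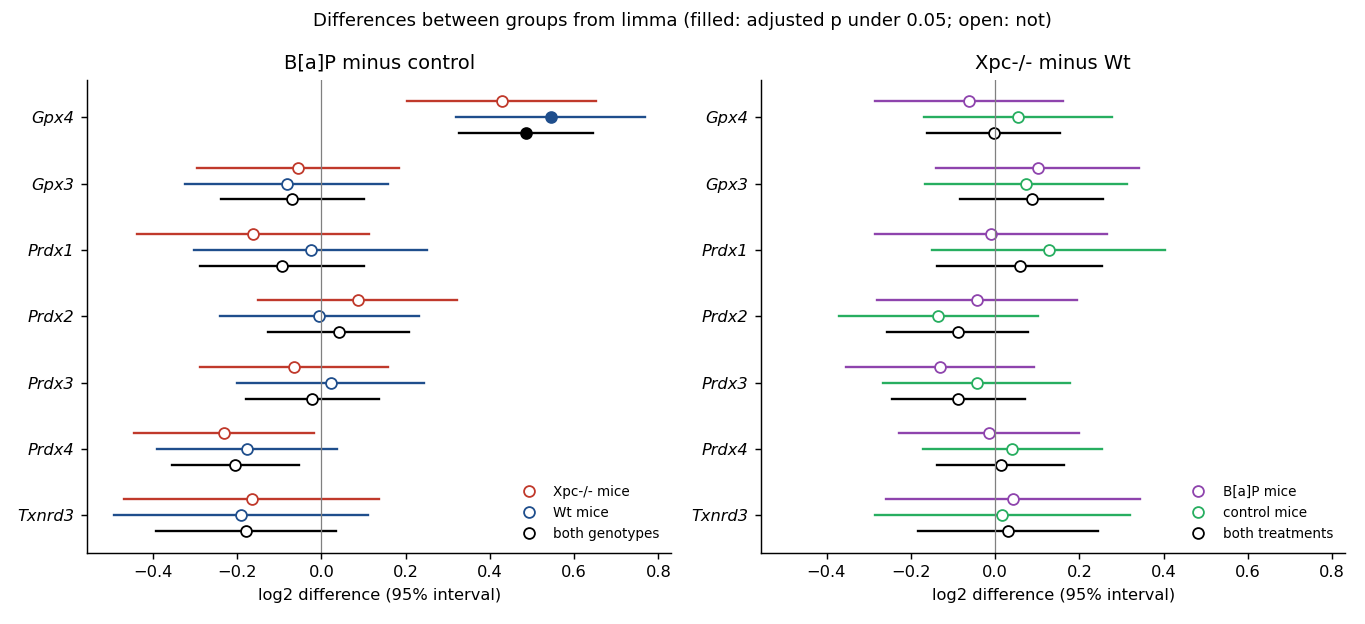
Log2 differences of the 7 members with 95% intervals from limma, B[a]P minus control on the left and Xpc-/- minus Wt on the right, each within 1 stratum and over both. Filled points have an adjusted p under 0.05. Gpx4 lies at 0.43 in Xpc-/- mice, 0.54 in Wt mice and 0.49 over both, while every interval on the right spans 0.

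The partners of these enzymes were read from 9 lists of redox genes, by counts beside the 5.68% of all probes called over both genotypes. Among the probes with the highest signal, as defined above for Gpx4, 16.1% were called. The lists differed in brightness. Probes above the median signal ran from 2 of 5 for other glutathione peroxidases to 17 of 18 for capsule and outer dense fibre partners. The thioredoxin list had 25 of 29. Neither share is matched to the brightness of a list. The thioredoxin and glutaredoxin system, which resets peroxiredoxins, had 27 of its 28 genes on the array with 29 probes. Of these probes 3 rose and 2 fell, with a median difference of 0.01 against -0.01 over all probes. An unadjusted p under 0.05 (limma) was reached by 12 of the 29, against 18.5% of all probes, a share also not matched to brightness. In the other lists with calls, it was reached by 6 of 24 probes for glutathione synthesis and 6 of 24 for NRF2. For selenoproteins it was 8 of 29, for ferroptosis 6 of 20 and for capsule partners 5 of 18. Txndc8, a thioredoxin of developing spermatids, rose by 0.40 (limma, adjusted p = 0.00585), at a mean of 13.02 in exposed and 12.62 in control mice. Txndc12, a thioredoxin-like protein of the endoplasmic reticulum, rose by 0.37 (limma, adjusted p = 0.0211). Tmx4, a membrane-bound relative of the same compartment, rose by 0.39 at 1 probe (limma, adjusted p = 0.0278) and measured -0.05 at its other probe. Nucleoredoxin (Nxn) fell by 0.28 (limma, adjusted p = 0.0433), and Tmx2 fell by 0.23 (limma, adjusted p = 0.0488). The reductases that recycle thioredoxin in cytosol and mitochondria were not called: Txnrd1 measured 0.25 (adjusted p = 0.110) and Txnrd2 0.07 (adjusted p = 0.774). Thioredoxin itself, Txn1, measured 0.15 (adjusted p = 0.538).

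On the glutathione side, 1 of 24 probes rose and 1 fell among 22 measured genes of glutathione synthesis and NADPH supply, with a median of -0.01. Slc3a2, the partner chain of the cystine transporter, rose by 0.31 (limma, adjusted p = 0.0300). Oplah, which returns oxoproline to glutamate in glutathione turnover, fell by 0.32 (limma, adjusted p = 0.0160). The subunits of the enzyme that starts glutathione synthesis, Gclc and Gclm, measured 0.27 and 0.23 without passing the test (limma, adjusted p = 0.0632 and 0.158), and glutathione reductase (Gsr) measured 0.05 and 0.02 at its 2 probes. Of the other glutathione peroxidases 5 of 5 genes were measured and 0 were called (limma; 1 had an unadjusted p under 0.05), with a median of 0.08. Gpx8, of the endoplasmic reticulum, had the largest difference among them at 0.28 (adjusted p = 0.134), and the epididymal Gpx5 measured 0.08.

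Enzymes upstream of the peroxidases were likewise not called. For superoxide dismutases and catalase, 0 of 6 probes passed (limma; 2 had an unadjusted p under 0.05), with Sod1 at -0.27 (adjusted p = 0.0687) and -0.05 at its 2 probes, Sod2 at -0.19 (adjusted p = 0.165) and catalase (Cat) at 0.05. For sulfiredoxin and sestrins, which restore overoxidized peroxiredoxins or act beside them, 0 of 7 probes passed (limma; 1 had an unadjusted p under 0.05). In the NRF2 pathway, the transcriptional response to electrophiles, 1 of 24 probes rose and 0 fell, with a median of 0.04. The one that rose was Osgin1, an oxidative stress-induced growth inhibitor, by 0.32 (limma, adjusted p = 0.0104). Among other widely used NRF2 targets, Gclc, Txnrd1 and Gclm measured 0.27, 0.25 and 0.23, and Nqo1 and Hmox1 -0.18 and 0.03. None of them was called. Of the 24 probes, 6 had an unadjusted p under 0.05 (limma), against 18.5% of all probes.

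Gpx4 needs selenocysteine, guards against lipid peroxidation and ends up in the sperm tail, and a list was read for each. In selenocysteine incorporation and other selenoproteins, 1 of 29 probes rose and 1 fell: Selenof, a selenoprotein of the endoplasmic reticulum, rose by 0.35 (limma, adjusted p = 0.0401), and Trnau1ap, which binds the selenocysteine tRNA, fell by 0.26 (limma, adjusted p = 0.0345). Among 20 probes for ferroptosis and lipid peroxidation, 2 rose and 1 fell. Ncoa4, which delivers ferritin for iron release, rose by 0.46 (limma, adjusted p = 0.00131) and was the only list gene called within a genotype, at 0.53 in Xpc-/- mice (limma, adjusted p = 0.0321). Aifm2, a coenzyme Q reductase that acts beside Gpx4 in membranes, fell by 0.35 (limma, adjusted p = 0.00730).

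Of 18 probes for capsule and outer dense fibre partners of Gpx4, 3 rose and 0 fell, with a median of -0.04. Oaz3, the testis antizyme, rose by 0.38 (limma, adjusted p = 0.00227). Akap3, a scaffold of the fibrous sheath, rose by 0.39 (limma, adjusted p = 0.00308). The outer membrane channel Vdac3, also counted for ferroptosis, rose by 0.27 (limma, adjusted p = 0.0309). Smcp, the cysteine-rich capsule protein that lies beside Gpx4, measured 0.05, and Akap4 and Odf1 measured 0.02 and -0.16, none of them called. Within Wt mice 0 probes of any of the 9 lists were called by limma. Without Xpc-/- control 1 and 2, 2401 probes were called over both genotypes, Tmx4 and Vdac3 were no longer among them, and the counts of called probes went to 1 higher and 3 lower for glutathione synthesis, 4 higher and 1 lower for selenoproteins, 2 higher and 1 lower for NRF2, 0 higher and 1 lower for superoxide dismutases and catalase, 1 higher and 3 lower for ferroptosis, and 2 higher and 2 lower for capsule and outer dense fibre partners. The thioredoxin list kept 3 higher and 2 lower, with Txnip in place of Tmx4.

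**Figure D3:**
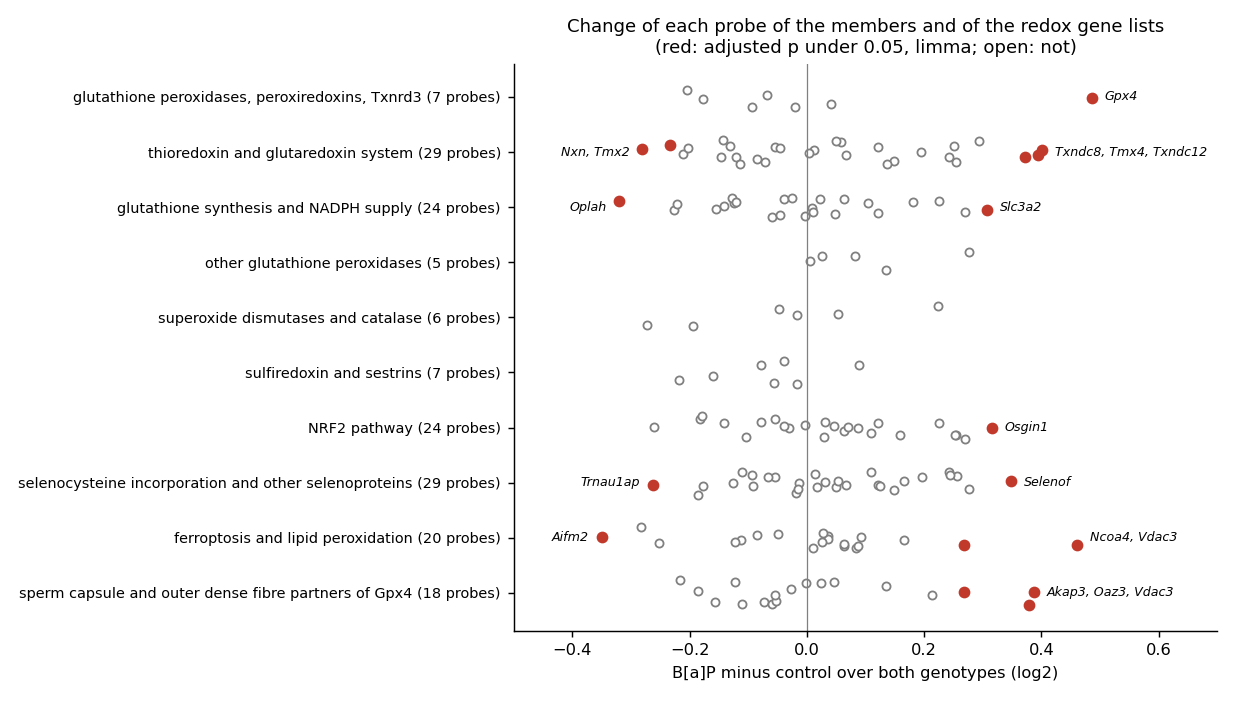
Log2 difference after B[a]P over both genotypes for every probe of the members and of the 9 redox lists, 1 point per probe, with rows for lists and red points for an adjusted p under 0.05 (limma). Gpx4, at 0.49, lies to the right of every list probe, the next being Ncoa4 at 0.46.

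The genes whose signal followed Gpx4 most closely over the 20 arrays were Ide, Mrps12 and Srrm2, with Pearson's r of 0.92, 0.91 and 0.91. Ide encodes a zinc protease that degrades insulin, Mrps12 a mitochondrial ribosomal protein and Srrm2 a splicing factor. All 3 rose in exposed mice when the genotypes were pooled, by 0.61, 0.52 and 0.44 (limma, adjusted p = 5.53e-05, 0.000138 and 0.000724). These correlations run over mice that fall into exposed and control groups and share the group difference, so they describe the pattern only. For Txnrd3 the closest were Tprgl, Sertad2 and Prkcsh, with r of 0.90, 0.89 and 0.89, and 0 of the 3 was called after B[a]P (limma, adjusted p = 0.124, 0.147 and 0.668).

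**Figure D4:**
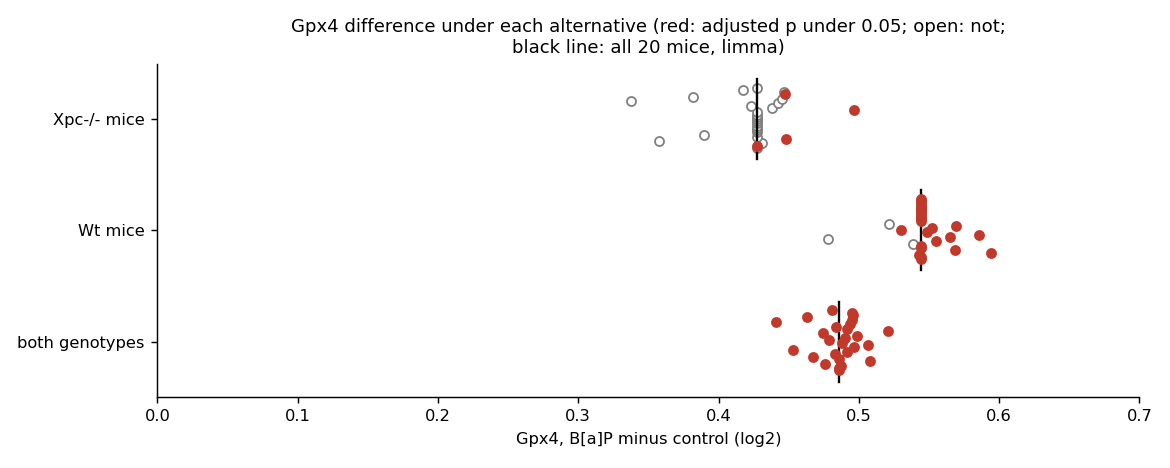
Log2 difference of Gpx4 between B[a]P and control mice under each alternative processing, 1 point per alternative, in Xpc-/- mice, Wt mice and both genotypes, with a black line for the value with all 20 mice. Over both genotypes all 27 alternatives are red (adjusted p under 0.05) and span 0.44 to 0.52, while each single genotype holds both red and open points.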

How the data were processed

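The authors took natural log signals of spots read with Imagene on Agilent 22K Mouse 2-colour arrays, brought all scans to the same quantiles, adjusted every sample signal by the reference signal at the same spot, and averaged spots of one probe; the deposited natural log values are used as they stand, divided by ln 2. A background subtraction and a genome build are not given in the sources used here. All 20868 probes were kept: 18303 carried 1 gene symbol, 2565 none, and 18134 were matched by Entrez ID to RefSeq genes of GRCm38.p6, used for names and neighbours. Groups and replicate numbers came from the sample labels. In limma 3.58.1 (R 4.3.3) each probe was given a mean per group, 7 contrasts were tested, and p-values were adjusted by Benjamini-Hochberg over all probes, with a threshold of 0.05. The precision is limited by the number of arrays. The fit was tested on simulated data. The paper's test, two-way analysis of variance, was an alternative, beside filters, scalings, array weights, a replicate block and leaving out arrays; counts of the lists under these were added after seeing the data. Every member probe is named, of each list the called genes (at most 6), Xpc, and for Gpx4 and Txnrd3 the 3 probes most correlated with them; other genes are named as background to a list, after their values were seen. Members and lists were chosen with earlier results of these data known. Marker averages use the brightest probe of each gene.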

Additional observations from a re-analysis of the deposited data

Results flagged for a closer look

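In the Wt control group, Prdx4 of mouse 3 lay at 12.33, far below the other 4 mice at 12.57 to 12.67. The gap to the nearest mouse, divided by the range of the group, was 0.716 against a critical value of 0.71 for 5 values. In all, 28 groups of 5 values were examined in this way and 1 was flagged; chance flags about 1 in 20. The same mouse had the highest Prdx2 and Prdx3 of all 20 mice, at 11.44 and 9.14, and the highest average of Leydig cell markers, 0.70 above the Wt control mean, where the other Wt control mice ran from -0.59 to 0.23. The part of Leydig cells in these values was not tested. Without this mouse the Prdx4 difference after B[a]P over both genotypes was -0.23 (limma, adjusted p = 0.0619).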

How the results depend on the processing

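Gpx4 over both genotypes kept its direction and its call in all 27 alternatives, at 0.44 to 0.52 on the log2 scale (limma or ordinary analysis of variance, adjusted p = 7.54e-06 to 0.00135). The other 6 members were called in 0 alternatives of any comparison. Within a genotype the count of called members moved with Gpx4 alone. In Wt mice it was 1, and leaving out 1 mouse gave 0 to 1: it was 0 without Wt B[a]P 1, Wt B[a]P 3 or Wt control 5, with Gpx4 at 0.54, 0.48 and 0.52. In Xpc-/- mice it was 0, and leaving out 1 mouse gave 0 to 1. It was 1 with only the probes above the median signal (adjusted p = 0.0455), where fewer probes are tested and Gpx3 drops out, and 1 with array weights (adjusted p = 0.0140). In a fit of Xpc-/- mice alone Gpx4 measured 0.43 with an adjusted p of 0.266.

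The count of all probes depended more on the setting: 1186 over both genotypes (744 higher, 442 lower) became 2630 with array weights (1318 higher, 1312 lower), 2401 without Xpc-/- control 1 and 2 (1174 higher, 1227 lower) and 763 without Wt control 4. In Wt mice 145 became 703 with array weights, 447 without Xpc-/- control 1 and 2, 528 in a fit of Wt mice alone and 17 to 254 without single mice. In Xpc-/- mice 135 became 604, 545, 0 in a fit of Xpc-/- mice alone, and 2 to 321. For genotype, array weights gave 11 over both treatments against 4, 2 in exposed mice against 1, and 9 in unexposed mice against 0. The causes were not tested. List counts, added after seeing the data, moved too: without single mice, selenoproteins ran from 0 to 5 calls and the thioredoxin list from 2 to 5.

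Replicate numbers did not pair the mice. Same-numbered mice of different groups deviated with r of -0.227 to 0.323, and 5 of 30 pairs exceeded 0.1. With a replicate block Gpx4 kept its calls (limma, adjusted p = 0.000599 over both genotypes, 0.0228 in Wt and 0.0698 in Xpc-/- mice), and no other member was called. The number of arrays limits the precision.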

Other observations

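Some mice sat at the ends of several members at once. Xpc-/- B[a]P 2 had the lowest value of all 20 mice for 4 of the 7 members, Prdx1 at 9.93, Prdx2 at 10.68, Prdx3 at 8.55 and Txnrd3 at 12.20, while its Gpx4, at 15.39, lay within its group. Xpc-/- B[a]P 5 had the highest Gpx4 and the highest Txnrd3, at 15.79 and 13.26. These mice were picked after their values were seen, and no test was run on them.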
